A study of Homo sapiens with 3 samples.

Results

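The ERK feedback loci described here are 9 genes and the p300/CBP peaks around them: the phosphatase genes DUSP1, DUSP4, DUSP5 and DUSP6, the Sprouty genes SPRY2 and SPRY4, the Sprouty-related genes SPRED1 and SPRED2, and PHLDA1. A peak belonged to a gene if its centre lay within 100 kb of the transcription start site (TSS), which selected 129 of 82901 peaks in control cells and 109 of 39320 peaks in Fra-1-depleted cells. No peak was counted for more than 1 gene, because the closest TSSs of these genes on a chromosome were 13.3 Mb apart. The ChIP-seq lists come from MDA-MB-231, an established human triple-negative breast cancer cell line of the basal B type. Cells were given a negative control siRNA (siCTL) or 3 siRNAs targeting Fra-1 as a mixture (siFra-1), each at 4.5 nM, and fixation for 7 min followed 72 h later. One antibody recognising p300 and CBP was used in both conditions, each condition gave 1 library made from pooled immunoprecipitations, and an input sample was not analysed here. With 1 library per condition no test between conditions was possible, and every interval given below covers counting error over peaks only.

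Fra-1, the product of FOSL1, is a Fos-family subunit of the transcription factor AP-1, which binds the motif TGAGTCA or TGACTCA together with a Jun partner. p300 and CBP are closely related acetyltransferases that bind enhancers and promoters through transcription factors and acetylate histones there. The kinases RAF, MEK and ERK carry growth signals from RAS, and ERK activity induces genes that damp the pathway. DUSP5 and DUSP6 remove phosphate from ERK in the nucleus and in the cytoplasm respectively, DUSP1 and DUSP4 are nuclear phosphatases with a broader range of MAP kinase targets, Sprouty and SPRED proteins act between receptors and RAF, and PHLDA1 encodes a pleckstrin homology-like protein induced by ERK signalling.

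AP-1 motif windows of 5 peaks are shown first, because they include regions found in both conditions at different widths and 1 wide region found in siCTL alone. Sequences are from hg19 (GRCh37), plus strand, 5′ to 3′, with TGAGTCA or TGACTCA in capitals and all other bases in lower case. The windows are centred on the motifs and end where the peak ends. They lie at chr10:112174403-112174702 and chr10:112220265-112220451 upstream of DUSP5, chr5:141742403-141742602 upstream of SPRY4, chr12:76338042-76338241 downstream of PHLDA1 and chr5:172204502-172204686 upstream of DUSP1.
DUSP5 far upstream region: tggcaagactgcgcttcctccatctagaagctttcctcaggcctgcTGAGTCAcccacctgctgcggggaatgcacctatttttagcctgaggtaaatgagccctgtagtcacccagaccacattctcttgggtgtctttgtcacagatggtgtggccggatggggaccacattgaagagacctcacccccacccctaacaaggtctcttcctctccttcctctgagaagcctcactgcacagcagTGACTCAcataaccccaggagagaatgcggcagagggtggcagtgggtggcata
DUSP5 intermediate upstream region: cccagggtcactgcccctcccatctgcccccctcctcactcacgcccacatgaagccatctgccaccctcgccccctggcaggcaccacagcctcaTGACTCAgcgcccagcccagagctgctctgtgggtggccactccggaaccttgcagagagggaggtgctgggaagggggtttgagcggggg
SPRY4 upstream region: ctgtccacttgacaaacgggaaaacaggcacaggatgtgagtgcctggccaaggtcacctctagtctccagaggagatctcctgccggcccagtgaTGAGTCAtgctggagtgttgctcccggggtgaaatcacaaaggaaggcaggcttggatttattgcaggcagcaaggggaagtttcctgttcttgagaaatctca
PHLDA1 downstream region: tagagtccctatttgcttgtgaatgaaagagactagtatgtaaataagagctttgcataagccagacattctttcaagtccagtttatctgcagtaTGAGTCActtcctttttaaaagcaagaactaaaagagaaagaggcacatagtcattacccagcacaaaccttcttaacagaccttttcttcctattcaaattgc
DUSP1 upstream region, siCTL alone: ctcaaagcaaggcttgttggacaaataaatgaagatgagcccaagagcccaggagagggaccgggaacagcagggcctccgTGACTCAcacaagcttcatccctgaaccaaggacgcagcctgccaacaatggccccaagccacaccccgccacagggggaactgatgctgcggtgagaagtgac

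Around the 9 genes the siFra-1 list held a larger number of p300/CBP peaks relative to siCTL than it did over the genome. For 129 siCTL peaks there were 109 siFra-1 peaks, which is 0.845 times as many (95% interval 0.649 to 1.10, Clopper-Pearson), against 0.474 (0.469 to 0.480) for the whole lists. Peaks of 100 bp, the smallest width in the lists, numbered 85 in siCTL and 61 in siFra-1, or 0.718 times as many (0.508 to 1.01), against 0.398 for the whole lists. Wide peaks, meaning those of 250 bp and over, numbered 24 in siCTL and 33 in siFra-1, or 1.38 times as many (0.788 to 2.43), against 1.64. All of these intervals at the members include 1, so neither the lower number of peaks nor the higher number of wide peaks was separable from counting error. The number of peaks depended on the window, with a ratio of 1.01 (0.720 to 1.43) within 50 kb and 0.700 (0.578 to 0.847), an interval that excludes 1, within 250 kb. The summed width of the peaks was 24600 bp in siCTL and 26550 bp in siFra-1. Wide peaks made up 18.6% of the members' siCTL peaks and 30.3% of their siFra-1 peaks, compared with 4.41% and 15.2% of the whole lists.

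The lists hold only positions, so width was the only sign in them of the strength of a peak, and the depth of the libraries is unknown. The paper reports signal fold changes at some of the p300/CBP peaks, which were not used here. A number of peaks also depends on how many runs of weak signal pass the authors' threshold. One processing setting named with the lists, whose meaning was not stated, was 79 for siCTL and 130 for siFra-1, and its part in the results was not tested.

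Numbers of peaks within 100 kb varied over the 9 genes from 5 to 28 in siCTL and from 4 to 25 in siFra-1, with medians of 13 and 9. The medians over all 20162 protein-coding genes were 6 and 2. For wide peaks the members' medians were 2 and 4, and the medians over all genes were 0 in both conditions. A gene was called lower when its siFra-1 number was at most 0.5 times its siCTL number and higher when it was at least 2 times. By this rule 1 of the 9 members, DUSP4 with a ratio exactly at the limit, was lower, compared with 64.5% of the 19245 genes that had any peak. None of the 9 was higher, compared with 3.97% of those genes. More wide peaks in siFra-1 than in siCTL were found at 5 of the 8 members with a wide peak, compared with 49.5% of 6403 such genes, and fewer at 2 members, compared with 22.9%.

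**Figure D1:**
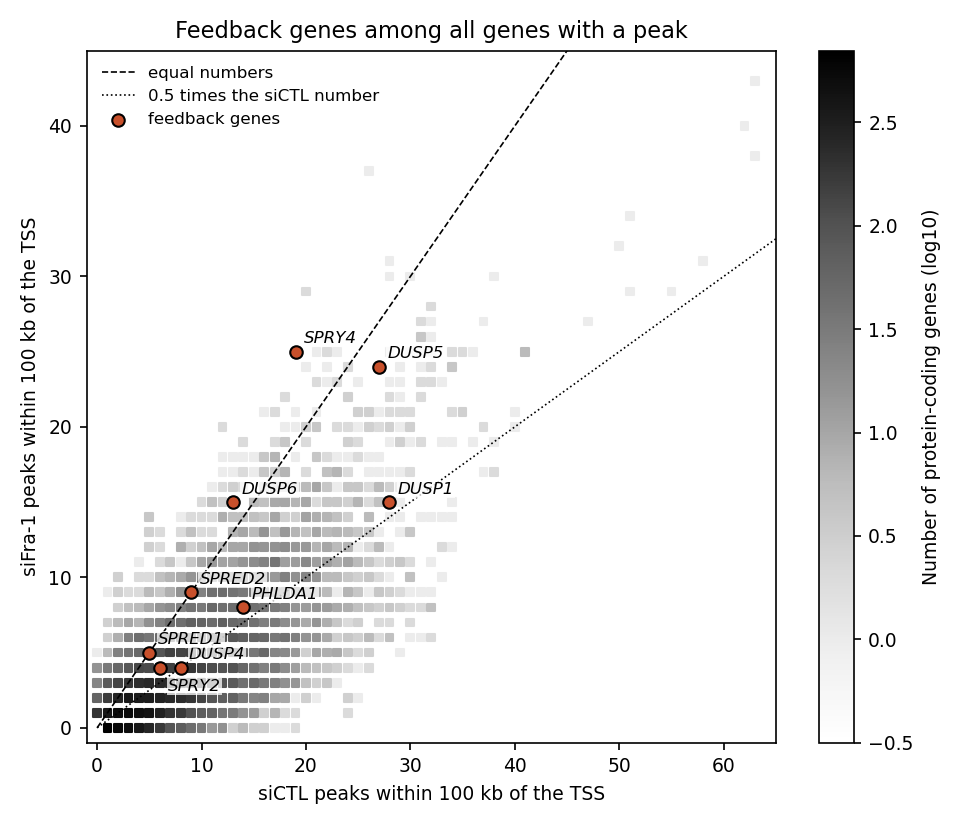
Number of siCTL peaks (x axis) and siFra-1 peaks (y axis) within 100 kb of the TSS of each protein-coding gene with a peak, with grey squares shaded by the log10 number of genes and the 9 feedback genes as labelled circles. SPRY4 and DUSP6 lie above the dashed line of equal numbers, SPRED1 and SPRED2 on it, and DUSP4 on the dotted line of 0.5 times the siCTL number.

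**Figure D2:**
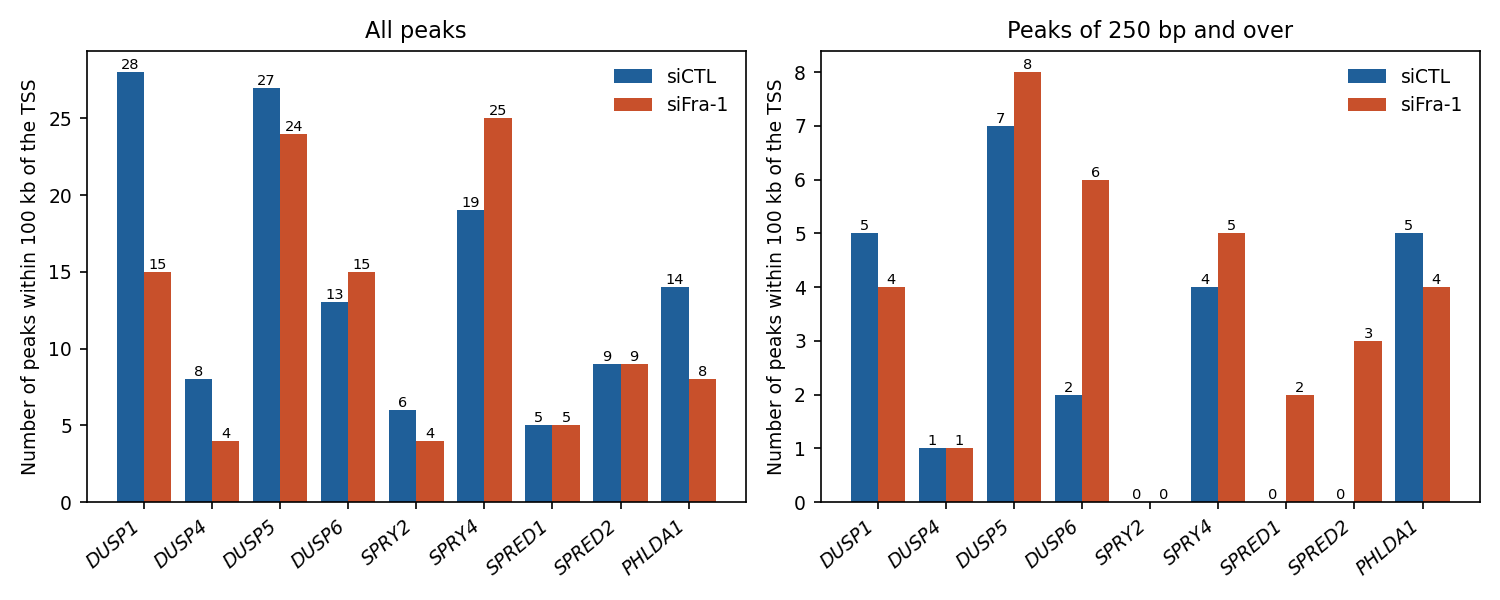
Number of p300/CBP peaks within 100 kb of each TSS in siCTL (blue) and siFra-1 (orange), 1 library each, for all peaks (left) and peaks of 250 bp and over (right). DUSP1 has 28 siCTL and 15 siFra-1 peaks, while SPRY4 has 19 and 25, and wide peaks at DUSP6 number 2 and 6.

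Among the phosphatase genes, the 4 loci together had 76 peaks in siCTL and 58 in siFra-1 (ratio 0.763, 0.533 to 1.09), with 15 and 19 wide peaks. DUSP1 (chromosome 5) had 28 siCTL and 15 siFra-1 peaks (ratio 0.536, 0.266 to 1.04), of which 5 and 4 were wide. DUSP4 (chromosome 8) had 8 and 4 peaks, with 1 wide peak in each condition. DUSP5 (chromosome 10) had 27 and 24 peaks (ratio 0.889, 0.491 to 1.60), of which 7 and 8 were wide. DUSP6 (chromosome 12) had 13 and 15 peaks (ratio 1.15, 0.512 to 2.63), of which 2 and 6 were wide. The ratio was lowest at DUSP4 and highest at DUSP6, and the intervals of all 4 genes overlap.

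The Sprouty loci were unlike each other, with few narrow peaks at SPRY2 and many peaks at SPRY4. SPRY2 (chromosome 13) had 6 siCTL and 4 siFra-1 peaks, all of 100 bp and none overlapping a peak of the other condition. SPRY4 (chromosome 5) had 19 siCTL and 25 siFra-1 peaks (ratio 1.32, 0.696 to 2.53), of which 4 and 5 were wide. SPRED1 (chromosome 15) had 5 peaks in each condition and SPRED2 (chromosome 2) had 9 in each. Neither SPRED gene had a wide siCTL peak, while siFra-1 gave 2 wide peaks at SPRED1 and 3 at SPRED2. PHLDA1 (chromosome 12) had 14 siCTL and 8 siFra-1 peaks (ratio 0.571, 0.208 to 1.46), of which 5 and 4 were wide.

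Much of the lower number of peaks came from DUSP1, which had 28 siCTL and 15 siFra-1 peaks. Without DUSP1 the sums were 101 and 94. Whichever gene was left out, siFra-1 had fewer peaks and more wide peaks than siCTL. Leaving out each gene in turn gave ratios of all peaks from 0.764 (0.568 to 1.02) without SPRY4 to 0.931 (0.695 to 1.24) without DUSP1. The ratio of wide peaks went from 1.23 (0.673 to 2.26) without DUSP6 to 1.53 (0.827 to 2.88) without DUSP1 or without PHLDA1.

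**Figure D3:**
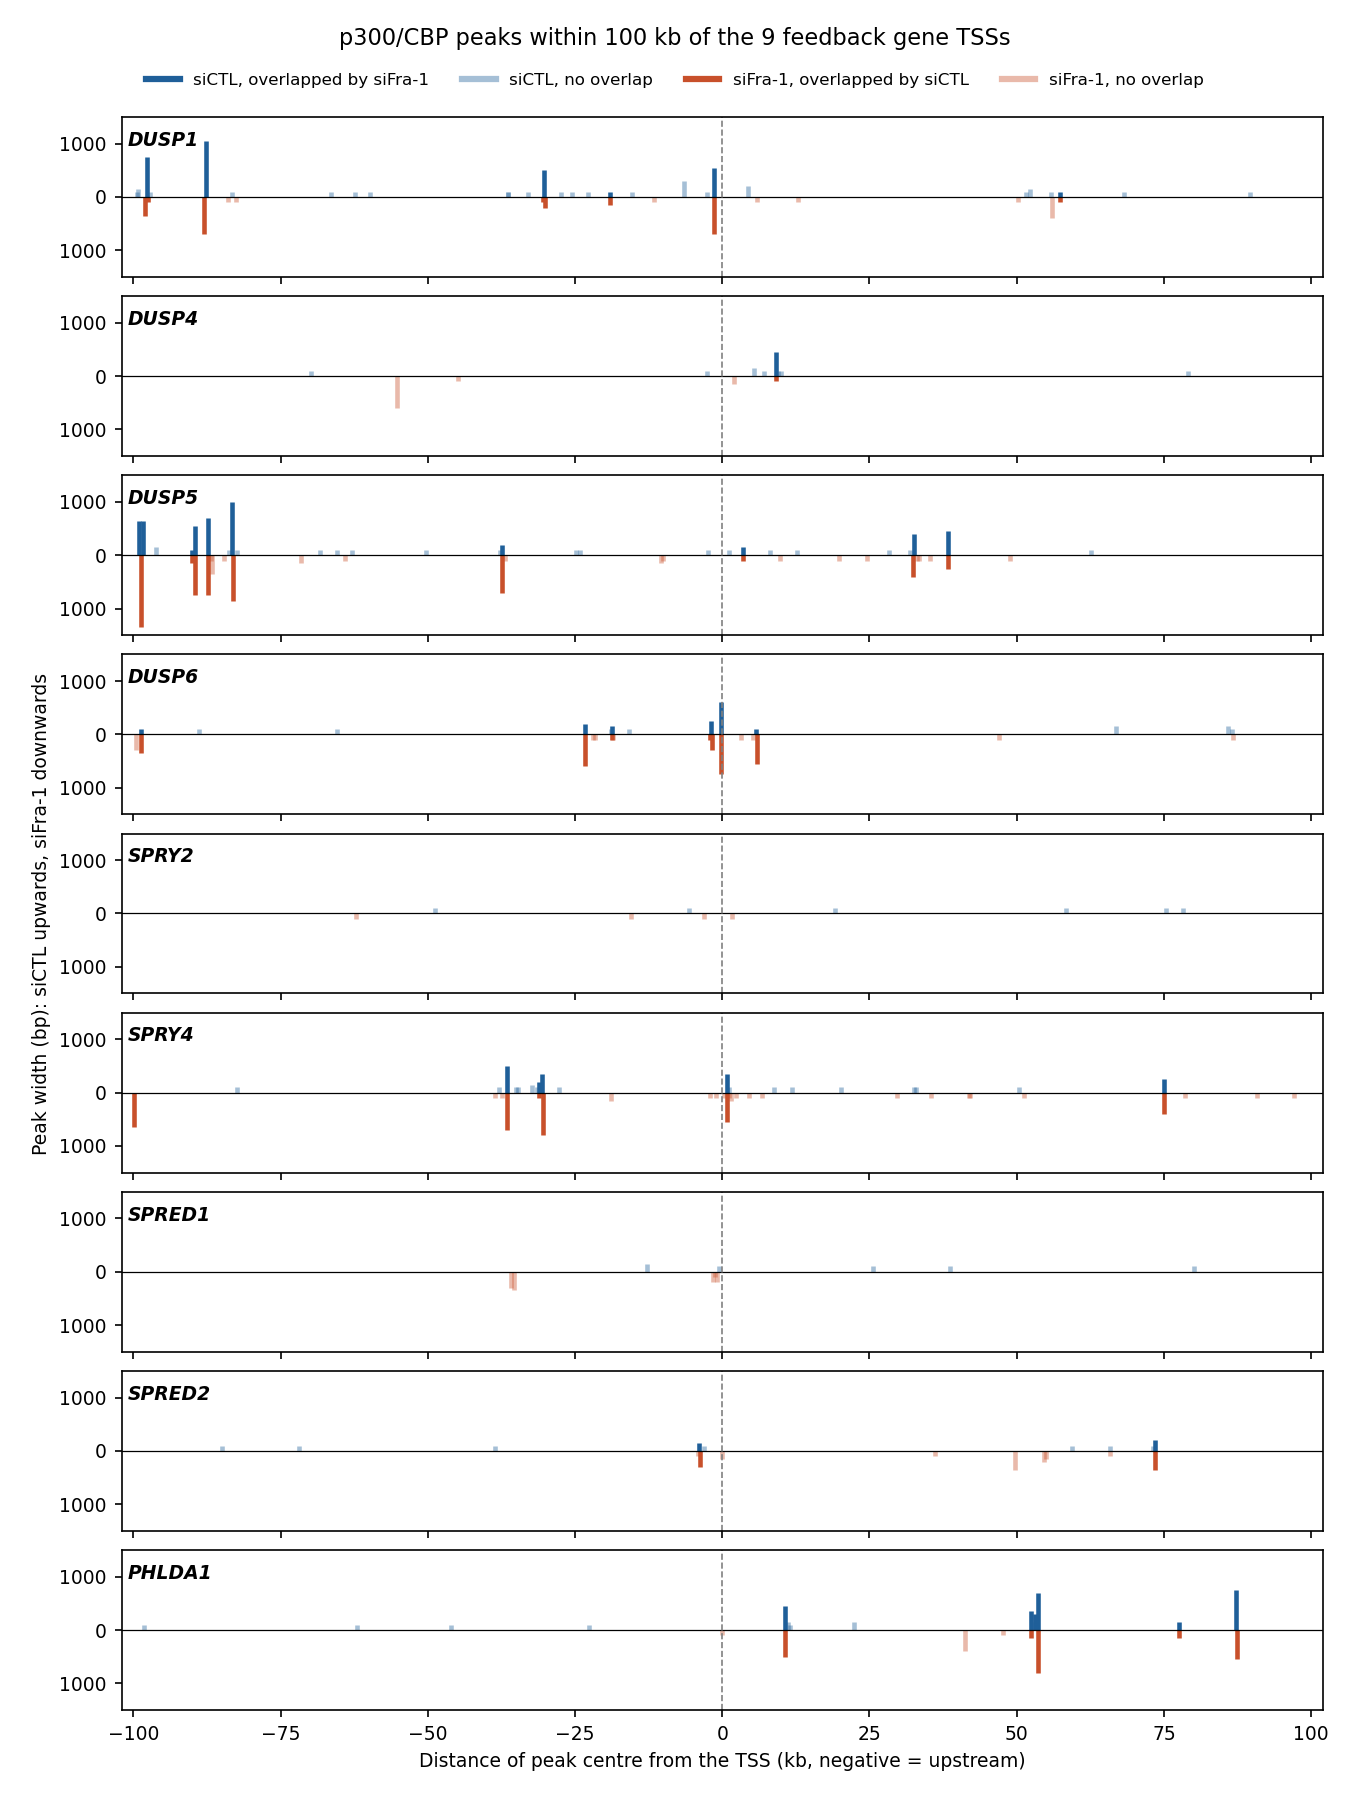
Positions of all p300/CBP peaks around the 9 genes, by distance of the peak centre from the TSS in kb (x axis, upstream negative), with peak width in bp upwards for siCTL (blue) and downwards for siFra-1 (orange), in full colour where a peak overlaps one of the other condition and pale where it does not. The tall bars mostly face each other, as 23 of 24 wide siCTL peaks are overlapped, whereas most of the short bars face none.

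Sharing between the conditions followed peak width. A peak was called shared when it overlapped a peak of the other condition by at least 1 bp. Of the members' siCTL peaks 36 of 129 were shared, 27.9% (20.9 to 36.2, Wilson), compared with 9.56% of all siCTL peaks. Of their siFra-1 peaks 38 of 109 were shared, 34.9% (26.6 to 44.2), compared with 19.1% of all siFra-1 peaks. Among peaks of 100 bp the shares at the members were 5.88% (2.54 to 13.0) in siCTL and 13.1% (6.80 to 23.8) in siFra-1, compared with 3.79% and 6.56% in the whole lists. Among wide peaks they were 23 of 24 in siCTL, 95.8% (79.8 to 99.3), and 25 of 33 in siFra-1, 75.8% (59.0 to 87.2). The whole lists gave 85.0% and 68.2% for wide peaks, within the members' intervals. Among peaks of 150 or 200 bp the members' shares were 40% (21.9 to 61.3) in siCTL and 33.3% (15.2 to 58.3) in siFra-1, compared with 21.7% and 28.1%. Sharing at the members was thus above the whole lists in every width class. The value of the whole list lay just below the interval for siCTL peaks of 150 or 200 bp (21.7% against 21.9%) and siFra-1 peaks of 100 bp (6.56% against 6.80%). The classes do not fix the width of the overlapping peak, and some shared siFra-1 peaks of 100 bp lay inside wide siCTL peaks. The median number of peaks was also higher at the members than over all genes, and its part in sharing was not tested.

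The wide siCTL peak with no siFra-1 counterpart lay 6.45 kb upstream of DUSP1 (chr5:172204502-172204801, 300 bp), with its centre in a non-coding exon of a lncRNA, and its AP-1 motif is the one shown in the last sequence above. The 8 wide siFra-1 peaks with no siCTL counterpart were spread over 7 genes. The widest of them, of 600 bp, lay 55.2 kb upstream of DUSP4 between genes. Others were 400 bp peaks 56.0 kb downstream of DUSP1 and 41.3 kb downstream of PHLDA1, and peaks of 300 and 350 bp at 35.9 and 35.4 kb upstream of SPRED1, in an intron of the lncRNA LINC02895. The remaining peaks were one of 350 bp at 86.6 kb upstream of DUSP5, one of 300 bp at 99.6 kb upstream of DUSP6 in an intron of POC1B, and one of 350 bp at 49.6 kb downstream of the SPRED2 TSS in an intron of that gene. None of these 8 peaks held an AP-1 motif in its central 200 bp, which with 8 peaks allows a share of up to 32.4% (Wilson). The share among all unshared wide siFra-1 peaks was 12.5%, so that none in 8 peaks is not separable from it.

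Of the shared siCTL peaks, more were wider than narrower in siFra-1. Each was set against the summed width of the siFra-1 peaks overlapping it, and a change counted from 50 bp, the bin of the signal. Of 36 pairs 22 were wider in siFra-1, 61.1% (44.9 to 75.2), compared with 57.2% of the 7925 shared siCTL peaks of the whole list. Narrower were 11, or 30.6% (18.0 to 46.9), compared with 21.6% of the whole list, and 3 had the same width. Both of the members' intervals include the value of the whole list. The median difference was 75 bp and differences ranged from -350 to 700 bp. The value of 700 bp came from 2 neighbouring siCTL peaks of 650 bp at DUSP5, each set against the same siFra-1 peak of 1350 bp. Where overlapping peaks of both conditions were joined into 35 regions, so that no peak counted more than once, 20 were wider (57.1%), 3 equal and 12 narrower (34.3%), compared with 52.3% wider and 24.3% narrower of 7292 such regions in the whole lists. The region with the siFra-1 peak of 1350 bp was 50 bp wider in siFra-1. Differences of the members' regions ranged from -350 to 500 bp, with a median of 50 bp, as in the whole lists. The summed siFra-1 width of the members' regions was 1.10 times the siCTL width, against 1.25 times in the whole lists.

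**Figure D4:**
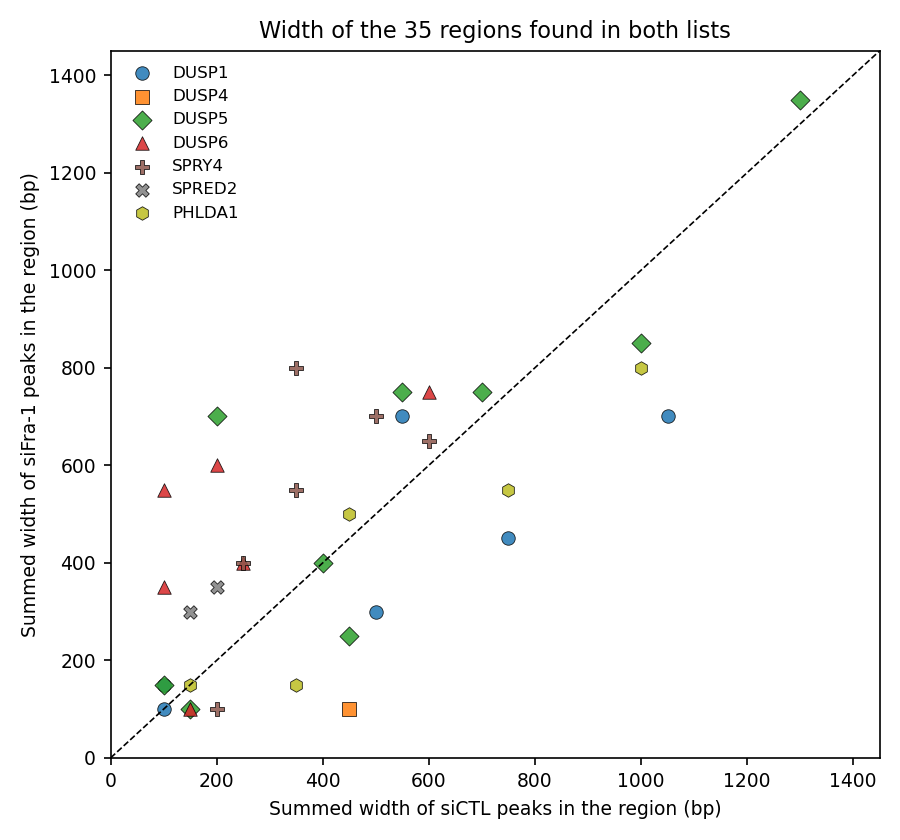
Summed width in bp of the siCTL peaks (x axis) and the siFra-1 peaks (y axis) in each of the 35 regions covered in both conditions, by gene, with a dashed line of equal width. Regions of DUSP6, SPRY4 and SPRED2 lie mostly above the line, where 20 regions stand in all, and 12 regions lie below it, among them 3 of DUSP1, 3 of PHLDA1 and the one of DUSP4.

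The direction of the width difference varied between genes. At DUSP6, 5 of 6 regions were wider in siFra-1 and the summed width was 1.96 times that in siCTL. At SPRY4, 5 of 6 were wider (1.42 times) and at SPRED2 both were (1.86 times). At DUSP5, 5 of 9 regions were wider and 3 narrower (1.09 times). At DUSP1, 2 of 6 regions were wider and 3 narrower (0.787 times), and at PHLDA1, 1 of 5 was wider and 3 were narrower (0.796 times). Regions of 1 locus share their surroundings and libraries, so they are not replicates of a condition, and differences between genes were not tested.

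At DUSP6, a peak reached the promoter in both conditions, with 600 bp in siCTL (chr12:89746202-89746801) and 750 bp in siFra-1 (chr12:89746152-89746901), and its centre lay in a non-coding exon of a lncRNA. Upstream by 1.95 kb, a siCTL peak of 250 bp was overlapped in part by siFra-1 peaks of 300 and 100 bp. The larger differences lay further from the TSS, with 100 bp in siCTL and 550 bp in siFra-1 at 5.85 kb downstream of it, beyond the gene (chr12:89740152-89740701). A region 23.2 kb upstream, in an intron of a lncRNA, measured 200 bp in siCTL and 600 bp in siFra-1. At 98.6 kb upstream, in an intron of POC1B, the widths were 100 and 350 bp.

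At DUSP5, 5 of the 7 wide siCTL peaks lay between 83 and 99 kb upstream of the TSS, with their centres between genes. The outermost region held siCTL peaks of 650 and 650 bp and a single siFra-1 peak of 1350 bp (chr10:112158252-112159601), the widest peak at any of the 9 genes. Its nearest protein-coding TSS was that of SMNDC1, a splicing factor gene, and not DUSP5. The next wide regions towards the gene measured 550, 700 and 1000 bp in siCTL and 750, 750 and 850 bp in siFra-1. The last of these (chr10:112174002-112175001 in siCTL) held 3 AP-1 motifs in siCTL, of which 2 are in the first sequence above and lay within the siFra-1 peak as well. A region 37.4 kb upstream, in an intron of the lncRNA DUSP5-DT, had 200 bp in siCTL and 700 bp in siFra-1 (chr10:112219902-112220601). Downstream of the gene, peaks of 400 and 450 bp in siCTL had counterparts of 400 and 250 bp.

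DUSP1 showed narrower far upstream regions and a wider one near the promoter. A siCTL peak of 1050 bp, 87.7 kb upstream (chr5:172285352-172286401), had a siFra-1 counterpart of 700 bp. One of 750 bp, 97.7 kb upstream (chr5:172295552-172296301), was overlapped in part by siFra-1 peaks of 100 and 350 bp. Both regions lie in an intron of ERGIC1, a gene of the transport between endoplasmic reticulum and Golgi, whose TSS was nearer than that of DUSP1. At 30.3 kb upstream, between genes, a 500 bp siCTL peak was overlapped in part by siFra-1 peaks of 200 and 100 bp. The peak 1.33 kb upstream of the TSS, in a non-coding exon of a lncRNA, measured 550 bp in siCTL and 700 bp in siFra-1 (chr5:172199202-172199901). The wide siCTL peak of DUSP4, 450 bp in an intron of the gene, had a siFra-1 counterpart of 100 bp, the smallest width in the lists. Of its 2 AP-1 motifs, 1 lay outside that counterpart and 1 was cut by its edge.

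At SPRY4, all wide siCTL peaks had wider siFra-1 counterparts. The widths were 350 and 800 bp in a region 30.4 kb upstream (chr5:141736002-141736801 in siFra-1) and 500 and 700 bp in a region 36.5 kb upstream (chr5:141742202-141742901 in siFra-1), both in an intron of the lncRNA SPRY4-AS1. The second of these held the AP-1 motif of the SPRY4 sequence above in both conditions. Inside the gene, 0.793 kb downstream of the TSS, a 350 bp siCTL peak had a 550 bp counterpart. The canonical SPRY4 transcript starts 1434 bp further downstream, so this peak lies upstream of that start. At 74.9 kb downstream of the first TSS, between genes, a 250 bp peak had a counterpart of 400 bp. At SPRED2 the shared peaks measured 200 and 350 bp in an intron of the gene, 73.4 kb downstream of the TSS, and 150 and 300 bp at 3.83 kb upstream.

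PHLDA1 had its wide peaks downstream of the gene. In introns of a lncRNA, a siCTL peak of 750 bp (chr12:76337902-76338651) had a counterpart of 550 bp, peaks of 700 and 300 bp had a single counterpart of 800 bp, and a peak of 350 bp had one of 150 bp. The region nearest to the gene, 10.7 kb downstream of the TSS, measured 450 bp in siCTL and 500 bp in siFra-1. Of the 2 AP-1 motifs in the 750 bp peak, the one in the PHLDA1 sequence above lay wholly in the peaks of both conditions and the other was cut by the edge of the siFra-1 peak.

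The window of 100 kb cut through 1 pair of wide peaks. A SPRY4 siFra-1 peak of 650 bp was counted with its centre 99.96 kb from the TSS, while its siCTL counterpart of 600 bp, at 100.08 kb, was not counted as a member peak. A DUSP5 siFra-1 peak of 350 bp was left out at 101.99 kb. Taking the nearest protein-coding TSS to each peak, 105 of 129 siCTL peaks (81.4%) and 98 of 109 siFra-1 peaks (89.9%) were closest to the member gene. At DUSP1 the numbers were lower, 14 of 28 and 10 of 15. The same share over all genes was not computed.

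Most peaks lay more than 10 kb from a member TSS, which the window of 100 kb on each side favours. Within 10 kb of a member TSS were the centres of 24 of 129 siCTL peaks (18.6%) and 30 of 109 siFra-1 peaks (27.5%), and of 6 of 24 and 6 of 33 wide peaks. By their centres, 51.2% of the siCTL peaks and 44.0% of the siFra-1 peaks lay in introns, and 39.5% and 45.0% lay between genes. Shares over all genes were not computed for distance, introns or positions between genes. A peak reached the promoter, a 3 kb window centred on the TSS, at 5 of 9 members in siCTL (DUSP1, DUSP5, DUSP6, SPRY4 and SPRED1) and at 6 of 9 in siFra-1 (DUSP1, DUSP6, SPRY4, SPRED1, SPRED2 and PHLDA1). Over all protein-coding genes these shares were 16.0% and 9.20%. A wide promoter peak was present at DUSP1, DUSP6 and SPRY4 in both conditions, and it was shared. SPRY4 also had narrower promoter peaks that were not shared, 1 of 100 bp in siCTL and 4 of 100 or 150 bp in siFra-1. At the other genes the promoter peaks were 100 to 200 bp wide and none was shared. SPRED1 had a single promoter peak of 100 bp in siCTL and peaks of 200, 100 and 200 bp in siFra-1, while the DUSP5 promoter had a peak of 100 bp in siCTL alone. In siFra-1 alone, SPRED2 had a promoter peak of 150 bp and PHLDA1 one of 100 bp.

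AP-1 motifs were found in a larger share of the members' shared than of their unshared peaks, as in the whole lists. In the central 200 bp, on either strand, a motif occurred in 13 of 129 siCTL peaks, 10.1% (5.98 to 16.5), compared with 6.15% of all siCTL peaks. It occurred in 13 of 109 siFra-1 peaks, 11.9% (7.10 to 19.3), compared with 9.08% of all siFra-1 peaks. In windows of the same length moved by 2 kb to both sides the shares were 3.88% (2.12 to 6.99) and 3.67% (1.87 to 7.07), and for siCTL these intervals of peaks and moved windows overlap. Shared peaks held the motif in 25% (13.8 to 41.1) of cases in siCTL and 23.7% (13.0 to 39.2) in siFra-1, and unshared peaks in 4.30% (1.69 to 10.5) and 5.63% (2.21 to 13.6). Shared peaks were also the wider ones, and wide peaks held the motif in 29.2% (14.9 to 49.2) and 18.2% (8.61 to 34.4) of cases. The whole lists gave 22.2% and 22.8% for shared peaks, 4.46% and 5.83% for unshared peaks, and 31.9% and 22.9% for wide peaks. All of these lie within the members' intervals.

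**Figure D5:**
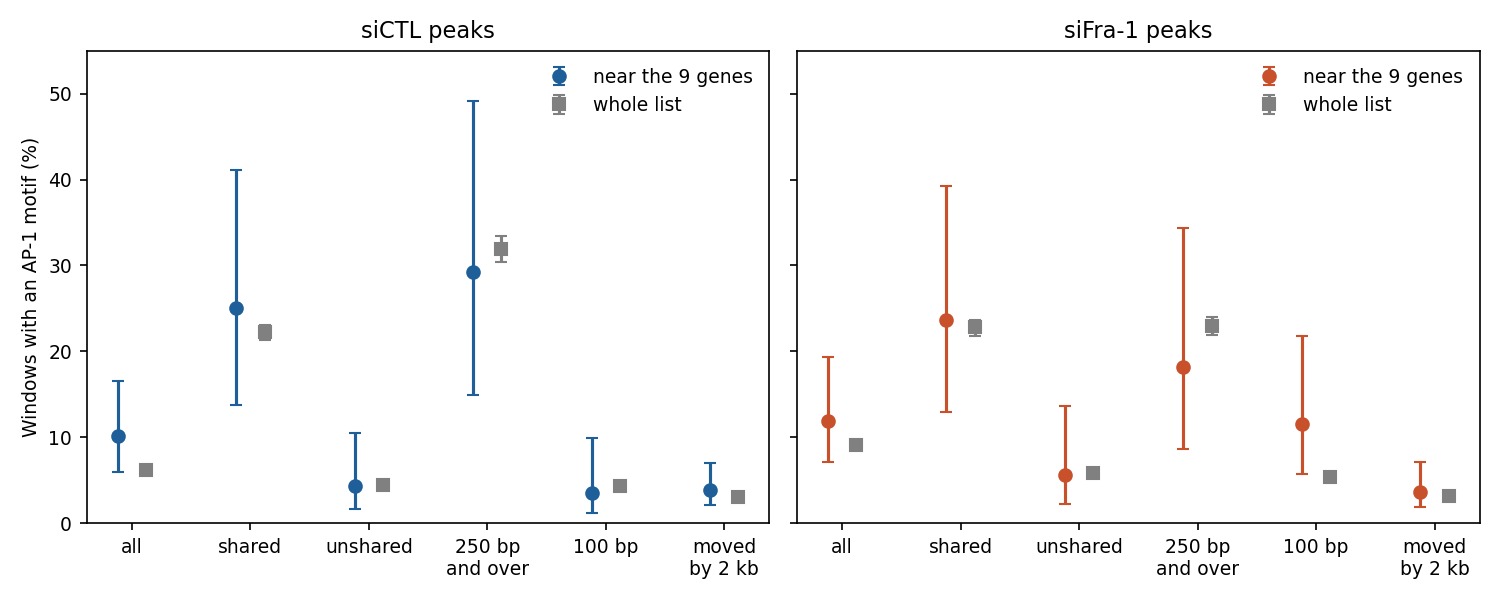
Share of windows with TGAGTCA or TGACTCA in the central 200 bp, in percent, for siCTL peaks (left) and siFra-1 peaks (right), near the 9 genes (circles) and in the whole lists (squares), with 95% Wilson intervals. Shared peaks near the 9 genes stand at 25% and 23.7% and unshared peaks at 4.30% and 5.63%, close to the whole lists and, for unshared peaks, to windows moved by 2 kb.

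Over the full width of the peaks, counting a motif where all of its bases lay in a peak, 22 AP-1 motifs were found at the 9 genes, of which 12 lay in peaks of both conditions, 8 in siCTL peaks alone and 2 in siFra-1 peaks alone. DUSP5 held 8 of the 22 and PHLDA1 held 5. The same count over all peaks of the whole lists was not made. Within the 35 regions covered in both conditions, 5 of 17 motifs in siCTL peaks were not wholly within a siFra-1 peak, 29.4% (13.3 to 53.1). The whole lists gave 13.6% by the same count, within that interval. Of the 5 motifs at the members, 2 were cut by the edge of the siFra-1 peak. Motifs in siFra-1 peaks not wholly within a siCTL peak were 1 of 13 at the members and 493 of 2482 in the whole lists. A wider peak covers more sequence, so these counts move with width. GGAATG, the motif of TEAD factors, occurred in 9.30% (5.40 to 15.6) of the members' siCTL windows and 19.3% (13.0 to 27.7) of their siFra-1 windows, compared with 12.4% and 11.5% in the moved windows. In the whole lists it occurred in 13.2% and 17.4% of the peaks. CCGGAAG, the motif of ETS factors, which include ERK substrates, was found 6 times in the 35 regions. Of these matches, 2 lay in peaks of both conditions and 4 in siFra-1 peaks alone. The whole lists held 177 and 83 such matches of 285. In the central 200 bp CCGGAAG occurred in 0 of 129 siCTL and 3 of 109 siFra-1 peaks. For the whole lists these shares were 0.803% and 1.30%. The RUNX motif TGTGGTT, the cAMP-responsive element TGACGTCA and the SRF CArG box were also searched. They gave 3, 0 and 3 matches in the 35 regions, compared with 1152, 39 and 151 in the 7292 regions of the whole lists.

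Other genes of the pathway had fewer siFra-1 than siCTL peaks, as the whole lists did. A list of 12 other feedback regulators had 104 peaks in siCTL and 62 in siFra-1 (ratio 0.596, 0.428 to 0.824), and of its 11 genes with a peak 5 were lower and 1 higher. The 15 genes of the core pathway had 141 and 63 peaks (ratio 0.447, 0.327 to 0.605), and of 14 with a peak 8 were lower and 1 higher. The 7 ERK-responsive targets had 90 and 53 peaks (ratio 0.589, 0.411 to 0.836), with 4 lower and none higher. The share of lower genes over all genes with a peak, 64.5%, is the background for these counts. The intervals of the feedback regulators and the ERK-responsive targets overlap that of the 9 members, and the interval of the core pathway lies below it. The interval of each of these lists includes the ratio of the whole lists, 0.474. Wide peaks went the other way in each list, with 10 and 16, 7 and 9, and 10 and 19 in siCTL and siFra-1 respectively. The most siCTL peaks were at IER3, an immediate early gene, with 32 in siCTL and 28 in siFra-1.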

How the data were processed

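p300/CBP ChIP-seq peak lists were deposited for 2 of the 3 samples (siCTL and siFra-1). According to their methods and the names of the deposited lists, the authors kept uniquely aligned hg19 reads, binned them at 50 bp with PASHA, scaled the signal and subtracted background. They called peaks with the Integrated Genome Browser (signal threshold 25, maximum gap 50 bp, minimum run 50 bp). The methods name BWA-backtrack as the aligner and the submitters' processing notes name Bowtie2. Replicate immunoprecipitations were pooled before sequencing. The deposited lists hold positions and no signal, counts or p-values, so the depth is unknown. Scaling and a fixed threshold act on number and width of peaks alike. All starts and ends lie 1 bp after a multiple of 50 bp, and printed starts, read as BED, may be 1 bp off.

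Genes came from GENCODE release 44 on GRCh37, and no peak lay beyond a chromosome end. Overlaps, widths and motifs were computed with pandas 2.3.3, scipy 1.17.1 and numpy 2.4.6 (Python 3.11.15). Matplotlib 3.10.9 drew the plots. Functions were tested on simulated data and against bedtools 2.31.1. Text names all 9 members, every peak of 250 bp and over or at a promoter, and from the pathway lists the gene with most siCTL peaks; the genes with the largest difference each way, and 1 sequence window, are not reported here. The members and lists were chosen with earlier results of these data known. Alternatives varied minimum width, window, TSS, overlap, promoter size and motif.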

Additional observations from a re-analysis of the deposited data

How the results depend on the processing

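Of 50 alternative values, 36 stayed within the interval of the reported value (counts, within 1.5 times). With peaks of at least 150 bp, the shared share was 61.4% in siCTL and 54.2% in siFra-1, and with at least 250 bp in both lists 83.3% and 57.6%. Where the overlap had to cover 50% of each peak, 15.5% and 19.3% were shared. The ratio of peak numbers at the members was 1.38 with peaks of at least 250 bp, and 1.09 with at least 150 bp. In a promoter window of 1 kb, 1 member in place of 5 had a siCTL peak and 4 in place of 6 had a siFra-1 peak. With a promoter window of 5 kb, 5 members had a siCTL peak and 8 had a siFra-1 peak. Chosen after seeing the data, the same minimum widths raised the ratios of the pathway lists, most of them from below to above 1: at 150 bp and 250 bp the feedback regulators gave 1.43 and 1.60 and the ERK-responsive targets 1.26 and 1.90, while the core pathway gave 0.714 and 1.29. The minimum removes the 100 bp peaks, which are fewer in siFra-1. Joined regions were also added after seeing the data.

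No paired analysis was possible because each condition has 1 library. Width alone stands for strength, peaks just under the threshold are missing, and a difference in scaling or enrichment between the libraries cannot be told apart from one in occupancy.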
